A study of Mus musculus with 12 samples.

Results

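Acetylated promoters of ordinary width were described in organoids of mouse intestine, small epithelial structures that grow in Matrigel from crypts. They were defined as H3K4me3 peaks on chromosomes 1 to 19, shorter than 6000 bp and within 1000 bp of an end of a protein-coding gene. Each overlapped an H3K27ac peak by at least 1 bp and no H3K27me3 peak. An end is either the start or the far end of the gene, so a member named for a gene may not lie at its start. By this rule 6042 peaks were members, of 58548 H3K4me3 peaks in all, and they made up 43.0% of the 14042 autosomal H3K4me3 peaks at a gene end. The AA organoids had received 25 µM AA (arachidonic acid, the fatty acid from which prostaglandins are made) for 6 days, and the vehicle organoids had received vehicle for the same time. Both groups were grown with EGF, Noggin, R-spondin, the GSK3 inhibitor CHIR-99021 and the ROCK inhibitor Y-27632 in the medium. The series' design text names Ptger KO organoids and the sample labels name no genotype, so the genotype of both groups is not known here. CUT&RUN, where a nuclease tethered to an antibody frees the marked DNA for sequencing, gave 2 AA and 2 vehicle libraries for each of H3K4me3, H3K27ac and H3K27me3. Whether libraries of 1 treatment are separate cultures is not stated, so p-values speak only of library-to-library spread and may reflect technical repeats.

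H3K4me3 is placed at the starts of genes by complexes of the SET1 and MLL methyltransferases, which are drawn to DNA rich in unmethylated CpG. H3K27ac is written by the acetyltransferases p300 and CBP and marks promoters and enhancers in use, while H3K27me3 is written by Polycomb repressive complex 2 and marks silenced genes. Promoters that carry the first pair of marks without the last are typical of genes that most cells use, such as those for ribosomes, mitochondria and splicing, and in the intestine also of genes of mature epithelial cells.

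The promoter sequences of 8 members, chosen by their calls, are shown. First come the 3 promoters whose 2 marks were both called. Then come the members with the largest H3K4me3 rises and falls, among those with a start in the table used. Each runs from 250 bases before the annotated start to 50 bases into the gene, 5′ to 3′ on the strand of the gene, from RefSeq on GRCm38.p6 (mm10). Capitals mark matches, on either strand, to the SP/KLF box (GGGCGG), to the NFY box (CCAAT), to the box bound by TATA-binding protein (TATAAA), to the E-box (CACGTG), to the element of AP-1 factors (TGANTCA) and to that of TEAD factors (GGAATG). A match is a string of letters and not a shown binding site.
S100a6, chr3:90612644-90612943, + strand: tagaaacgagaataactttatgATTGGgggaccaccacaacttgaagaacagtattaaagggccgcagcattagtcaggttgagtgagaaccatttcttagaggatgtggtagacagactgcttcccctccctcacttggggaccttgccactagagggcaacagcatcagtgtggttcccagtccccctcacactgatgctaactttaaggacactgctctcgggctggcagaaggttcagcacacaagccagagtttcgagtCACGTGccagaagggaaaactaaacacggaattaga
Wdr75, chr1:45794916-45795215, + strand: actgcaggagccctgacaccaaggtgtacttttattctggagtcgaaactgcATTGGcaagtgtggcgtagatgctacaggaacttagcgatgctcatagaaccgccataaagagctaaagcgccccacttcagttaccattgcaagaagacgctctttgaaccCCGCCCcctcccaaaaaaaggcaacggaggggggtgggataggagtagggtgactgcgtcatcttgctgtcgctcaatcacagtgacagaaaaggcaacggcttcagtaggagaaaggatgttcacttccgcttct
S100a1, chr3:90514281-90514580, - strand: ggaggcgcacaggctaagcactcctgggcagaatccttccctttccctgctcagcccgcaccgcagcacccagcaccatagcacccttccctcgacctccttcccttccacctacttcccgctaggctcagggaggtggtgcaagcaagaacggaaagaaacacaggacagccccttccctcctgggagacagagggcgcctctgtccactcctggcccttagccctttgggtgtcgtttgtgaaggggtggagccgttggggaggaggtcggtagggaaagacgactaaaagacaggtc
Syt8, chr7:142434600-142434899, + strand: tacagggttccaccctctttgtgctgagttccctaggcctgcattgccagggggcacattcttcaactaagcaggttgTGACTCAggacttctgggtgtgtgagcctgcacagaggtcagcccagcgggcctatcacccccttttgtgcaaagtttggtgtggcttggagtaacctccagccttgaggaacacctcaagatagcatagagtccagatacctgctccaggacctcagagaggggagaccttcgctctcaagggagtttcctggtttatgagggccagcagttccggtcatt
Anxa10, chr8:62123144-62123443, - strand: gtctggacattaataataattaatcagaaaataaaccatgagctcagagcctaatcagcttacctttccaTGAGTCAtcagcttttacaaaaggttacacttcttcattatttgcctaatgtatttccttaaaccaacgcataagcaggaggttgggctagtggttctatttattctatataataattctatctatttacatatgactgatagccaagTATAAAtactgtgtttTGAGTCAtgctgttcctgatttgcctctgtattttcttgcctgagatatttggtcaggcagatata
Anxa1, chr19:20390622-20390921, - strand: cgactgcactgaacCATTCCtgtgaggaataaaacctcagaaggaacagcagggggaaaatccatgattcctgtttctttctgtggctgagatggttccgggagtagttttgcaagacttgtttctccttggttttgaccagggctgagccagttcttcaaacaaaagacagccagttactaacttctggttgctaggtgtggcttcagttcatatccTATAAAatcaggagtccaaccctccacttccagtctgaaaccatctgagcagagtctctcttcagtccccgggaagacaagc
Nr0b2, chr4:133553126-133553425, + strand: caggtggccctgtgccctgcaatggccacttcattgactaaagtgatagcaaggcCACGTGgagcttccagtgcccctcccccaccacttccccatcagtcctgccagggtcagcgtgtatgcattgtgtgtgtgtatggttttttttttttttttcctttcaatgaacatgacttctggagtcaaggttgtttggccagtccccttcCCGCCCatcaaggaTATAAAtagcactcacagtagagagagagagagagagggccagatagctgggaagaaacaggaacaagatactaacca
Tfpi2, chr6:3988809-3989108, - strand: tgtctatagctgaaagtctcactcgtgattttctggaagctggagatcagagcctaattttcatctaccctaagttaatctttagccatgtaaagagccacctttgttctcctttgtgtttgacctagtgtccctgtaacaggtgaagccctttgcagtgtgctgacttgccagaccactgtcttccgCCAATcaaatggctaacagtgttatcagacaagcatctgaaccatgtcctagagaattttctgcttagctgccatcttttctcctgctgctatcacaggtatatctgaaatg

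These sequences hold few CpG pairs. The Anxa10 promoter has 1 CpG in 300 bases and an observed-to-expected CpG ratio of 0.11, the Tfpi2 promoter 2 and 0.14, and the Syt8, Anxa1 and Nr0b2 promoters 3 each, with ratios of 0.13, 0.18 and 0.16. The S100a6 promoter has 6 CpG and a ratio of 0.33, S100a1 has 11 and 0.40, and Wdr75 has 12 and 0.61. The median over the 5111 promoters that lie in member peaks was 20 CpG and a ratio of 0.77. TATAAA occurs in the Anxa10, Anxa1 and Nr0b2 sequences, TGANTCA in those of Syt8 (1 match) and Anxa10 (2 matches), and GGAATG in that of Anxa1 (1 match).

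The peak score is a scaled mean coverage per base. At member promoters the median H3K4me3 score was 0.850 and 0.716 in the AA libraries, against 0.685 and 0.663 in the vehicle libraries. The median H3K27ac score of the overlapping peak was 0.297 and 0.273 in the AA libraries, against 0.259 and 0.246 in the vehicle libraries. In both marks the AA libraries were thus above the vehicle libraries, and for H3K4me3 the AA libraries lay farther from each other than the vehicle libraries did. The median raw depth behind the H3K4me3 scores, the score divided by the library's smallest step, was 7.81 and 7.05 per base in AA against 13.3 and 8.69 in vehicle, so AA was the shallower group. For H3K27ac it was 3.34 and 4.04 in AA against 2.68 and 3.44 in vehicle. AA replicate 2 stood apart from the other H3K4me3 libraries, at 157.7 on the first principal component over all peaks (48.8% of the variance), with the other 3 between -74.1 and -13.5. In H3K27ac, vehicle replicate 1 lay at 74.7 on the first component (39.5% of the variance), with the other 3 between -49.1 and -2.96. The part of depth and of these libraries' positions in the differences below was not tested. Fits without each library are described beside them.

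**Figure D1:**
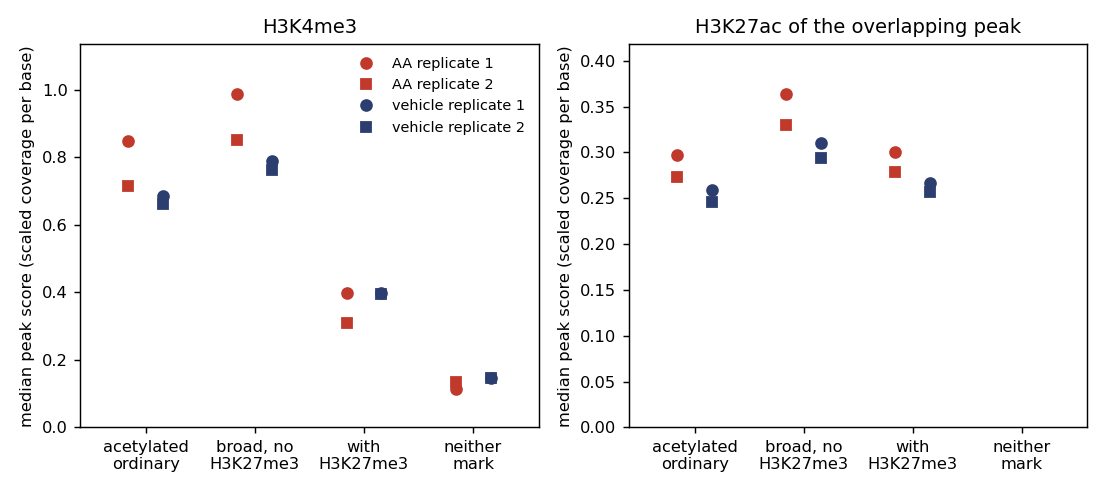
Median peak score (scaled coverage per base) of H3K4me3, left, and of the overlapping H3K27ac peak, right, in each library for 4 classes of autosomal gene-end H3K4me3 peaks; AA libraries are red and vehicle libraries blue, circles are replicate 1 and squares replicate 2. Acetylated ordinary promoters lie below broad peaks and above peaks with H3K27me3 or with neither mark in H3K4me3, and both AA libraries are above both vehicle libraries there (0.850 and 0.716 against 0.685 and 0.663).

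Member peaks had a median width of 3727 bp (385 to 5998 bp), 211 were shorter than 1000 bp, and 87.7% contained the gene end itself. A RefSeq start lay in 67.3% of them, or in 81.4% of the 4993 members that have a gene in the table of starts. Counted in the same way over peaks with a gene in that table, the share was 96.3% of 1609 gene-end peaks of 6000 bp or more without H3K27me3 (broad peaks, 1918 in all), 79.4% of 3625 that overlapped H3K27me3 (4570 in all) and 38.2% of 1225 with neither mark (1512 in all). Starts on both strands lay in 6.14% of members, against 15.5% of the broad peaks. A MACS2 peak of the same mark overlapped 89.8% of members for H3K4me3 and 43.5% for H3K27ac, and the acetylation of the other members was called by SEACR and not by MACS2.

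The DNA of member promoters was CpG-rich. Their median observed-to-expected CpG ratio of 0.77 compares with 0.59 over all 20085 autosomal promoters in the table, 0.85 in broad peaks, 0.75 in peaks with H3K27me3, 0.56 in peaks with neither mark, and 0.20 in promoters outside every H3K4me3 peak. CCGGAAG, the core recognised by ETS factors, occurred in 23.1% of member promoters, against 11.9% of all promoters and 19.9% of those in broad peaks. The palindrome of NRF1, a factor of nuclear genes for mitochondria, occurred in 11.3% of member promoters, against 6.55% of all. TATAAA was found in 6.67% of member promoters, against 12.7% of all promoters and 22.7% of those outside H3K4me3 peaks. Both strands were searched, and the part of CpG content in these shares was not tested.

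Lists of general cell machinery differed in how many of their genes were members. These shares are per gene and count genes without a gene-end peak, while the 43.0% of autosomal gene-end peaks that were members is a share of peaks. Of 20 genes for the mitochondrial ribosome and mitochondrial translation 16 had a member promoter, as had 14 of 25 genes of the respiratory chain and ATP synthase, 14 of 23 proteasome genes, 14 of 26 genes of DNA replication and mitosis, 10 of 24 splicing genes, 10 of 24 genes of the transcription machinery and 8 of 27 cytosolic ribosomal protein genes. Members were few among 23 housekeeping genes (3, with 12 in broad peaks) and among 23 genes of protein folding and the unfolded protein response (3, with 13 in broad peaks). Genes of intestinal regulation were rare among them. Of 25 Wnt target and stem cell genes 1 was a member (Znrf3), with 8 in broad peaks and 14 in peaks with H3K27me3, and of 24 intestinal identity factors 1 was a member (Hnf4g), with 12 in broad peaks and 10 in peaks with H3K27me3. Of 16 epithelial marker genes 0 were members, while 15 of them had a gene-end H3K4me3 peak, 7 of them broad and 7 with H3K27me3. Their H3K4me3 scores summed to 11.86 and 10.17 in AA libraries and 10.25 and 9.80 in vehicle libraries. Gene-end peaks were present for 4 of 11 fibroblast markers (summed scores 0.989 and 0.750 in AA, 1.18 and 1.29 in vehicle), 4 of 9 blood cell markers (1.93 and 1.65 in AA, 1.43 and 1.59 in vehicle) and 3 of 5 endothelial markers (0.428 and 0.465 in AA, 0.524 and 0.615 in vehicle), with 1 member among them, the integrin gene Itgam (H3K4me3 scores 0.0467 and 0.136 in AA, 0.0769 and 0.171 in vehicle).

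The strongest H3K4me3 signals in vehicle were at Tmem115, Ppp1r14d, Kif15 and Nvl. Tmem115, which encodes a Golgi membrane protein, scored 2.27 and 1.80 in AA libraries and 1.59 and 1.44 in vehicle libraries. Ppp1r14d, which encodes a phosphatase inhibitor of gut and brain, scored 1.96 and 1.62 in AA and 1.45 in both vehicle libraries. Kif15, which encodes a mitotic kinesin, scored 2.04 and 1.69 in AA and 1.43 and 1.42 in vehicle, and its peak also holds the start of 1110059G10Rik. Nvl, which encodes an ATPase of large ribosomal subunit assembly, scored 2.15 and 1.80 in AA and 1.46 and 1.32 in vehicle. In these 4 genes the groups did not overlap, and all but Ppp1r14d were called higher by the test described next. The strongest H3K27ac peaks in vehicle were at Irf2bp2, a corepressor gene (0.626 and 0.539 in AA, 0.625 and 0.473 in vehicle), Polr3gl, a subunit gene of RNA polymerase III (0.698 and 0.573 in AA, 0.510 and 0.534 in vehicle), Rbm25, a splicing regulator gene (0.627 and 0.587 in AA, 0.507 and 0.519 in vehicle), and Mastl, a mitotic kinase gene whose peak also holds the start of Yme1l1 (0.596 and 0.451 in AA, 0.521 and 0.500 in vehicle). At Irf2bp2 and Mastl the groups overlapped. No start from the table lies in the Tmem115, Polr3gl and Rbm25 peaks.

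H3K4me3 was called different in AA at 411 members (6.80%, against 2.92% of all H3K4me3 peaks). Of these, 361 were called higher in AA (5.97%, against 1.54% of all H3K4me3 peaks) and 50 lower (0.828%, against 1.38% of all), in limma on log2(score + 0.0253) with Benjamini-Hochberg adjustment over all 58548 peaks and a threshold of 0.05. The rises were mostly small, with a median of 0.52 on the log2 scale, and 23 of them reached 1. The called falls had a median of -0.98, and 23 of the 50 reached -1. The smallest called change was 0.37 for a rise and -0.58 for a fall. Called falls lay at weaker peaks, with a median mean score of 0.474 against 1.06 for called rises. The part of level in these sizes was not tested. The median change was 0.21 over all members and -0.19 over all peaks, and 77.3% of members had a change above 0. AA and vehicle libraries did not overlap and AA was higher at 52.6% of members (18.3% of all peaks), and AA was lower without overlap at 10.8% (30.5% of all peaks). An unadjusted p under 0.05 was reached by 1869 members. Broad peaks without H3K27me3 had a similar profile, with 6.20% called higher and a median change of 0.25, and the difference between these classes was not tested.

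These counts moved when a library was left out and with the scaling. A fit without 1 library leaves 1 arm with a lone library, which is then assumed to vary like the pair of the other arm, so each such fit takes its spread from 1 group alone; the median absolute gap at members was 0.251 between AA libraries and 0.114 between vehicle libraries on the log2 scale. Nearly all of the calls were lost without either vehicle library, when the spread came from the AA pair. More members were called without either AA library. At all 411 calls the AA and vehicle libraries did not overlap, so leaving out 1 library could not turn a sign. The median change of the members was 0.10 without AA replicate 1 and 0.33 without AA replicate 2, and 0.24 and 0.19 without vehicle replicate 1 and 2. Against 361 higher and 50 lower as deposited (87.8% higher), centring each library on the median of all peaks gave 2336 and 27 (98.9%), centring on the peaks of the strongest 25% 625 and 265 (70.2%), and quantile normalization 189 and 168 (52.9%). The median of the members lay 0.40 above that of all peaks, a gap that centring cannot alter, and 0.069 above it after quantile normalization. Limma without its trend and robust steps called 0 members, with 192 at an unadjusted p under 0.05.

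The change followed the level of the mark. From the weakest to the strongest 1 in 5 of members by mean H3K4me3 score, the median change was -0.25, 0.14, 0.21, 0.27 and 0.33. Of the 361 members called higher, 246 lay in the strongest of these 5 bins and 10 in the weakest, and of the 50 called lower 39 lay in the 2 weakest bins. The middle bin scored 0.852 and 0.721 in AA libraries (medians) against 0.686 and 0.663 in vehicle libraries. By width, the narrowest bin (385 to 2461 bp) had a median change of -0.11 and the other 4 had 0.21 to 0.26. The part of level and depth in these differences was not tested.

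**Figure D2:**
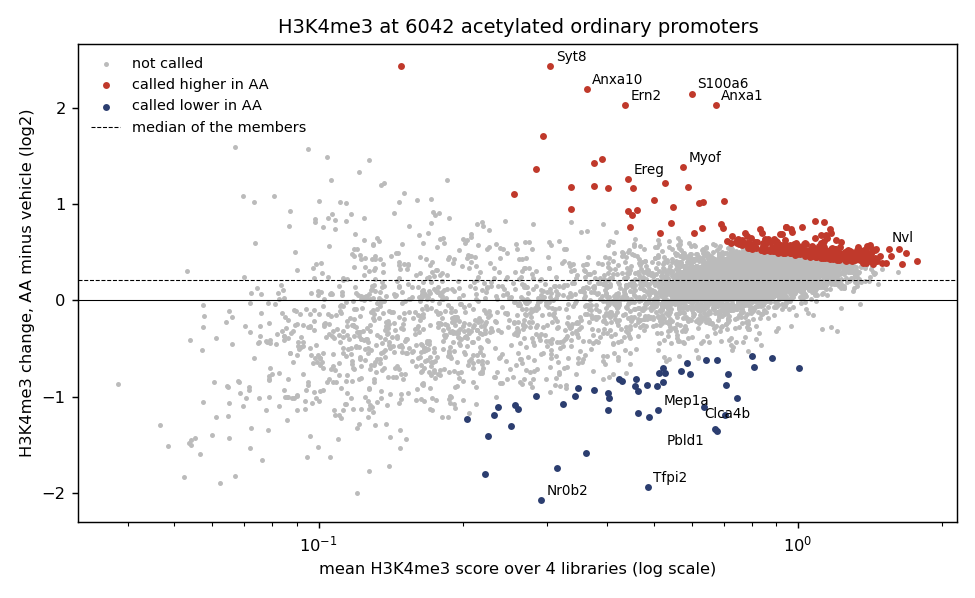
Change in H3K4me3, AA minus vehicle on the log2 scale, against the mean score over the 4 libraries on a log axis, with 1 point per member; red points were called higher and blue points lower in AA, and the dashed line is the median of the members (0.21). Most red points form a band of small rises at high scores, and a few genes, among them Syt8, Anxa10, S100a6, Anxa1 and Ern2, lie above 2.

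The largest rises were at Tmem167b, Syt8, Anxa10, S100a6, Anxa1 and Ern2. At Anxa1, which encodes annexin A1, the H3K4me3 score was 1.12 and 1.07 in AA libraries and 0.271 and 0.229 in vehicle libraries. At S100a6, which encodes an EF-hand calcium-binding protein, it was 1.07 and 0.917 in AA and 0.216 and 0.194 in vehicle, and the peak also lies within 1000 bp of S100a5. Both genes had every AA library more than 3 times above every vehicle library. Their changes were 2.03 ± 0.21 (Anxa1, chr19:20388996-20391022; SE, limma adjusted p = 3.88e-18) and 2.15 ± 0.23 (S100a6, chr3:90612335-90616148; SE, limma adjusted p = 4.07e-17), both on the log2 scale.

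Anxa10, which encodes an annexin known from human gastric epithelium, scored 0.612 and 0.609 in AA against 0.112 and 0.115 in vehicle. Syt8, a synaptotagmin gene, scored 0.687 and 0.379 in AA against 0.0911 and 0.0593 in vehicle. Ern2, which encodes the endoplasmic reticulum stress sensor IRE1β of mucosal epithelia, scored 0.855 and 0.578 in AA against 0.135 and 0.174 in vehicle. Libraries of each group lay close together at Anxa10, while at Syt8 and Ern2 AA replicate 1 was the higher AA library. The raw depth at Syt8 was 6.31 and 3.74 per base in AA and 1.77 and 0.777 in vehicle. The changes were 2.20 ± 0.31 at Anxa10 (chr8:62118516-62124468; SE, limma adjusted p = 1.63e-09), 2.44 ± 0.36 at Syt8 (chr7:142434126-142437666; adjusted p = 1.38e-08) and 2.03 ± 0.27 at Ern2 (chr7:122184269-122186676; adjusted p = 3.18e-10), and for Ern2 no start from the table lies in the peak. Anxa1, S100a6, Anxa10, Syt8 and Ern2 were the 5 members called in each of the 4 fits without 1 library, which take the spread from 1 group alone, with a highest adjusted p of 1.17e-05, 9.33e-06, 0.0016, 0.00761 and 0.0042 in that order. Tmem167b, with an equal change of 2.44 ± 0.64 (SE, limma adjusted p = 0.0126), had a raw depth of 1.81 and 3.36 per base in AA and 0.552 and 0.347 in vehicle, held no start from the table, and was called in 1 of those fits.

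Large falls were at Nr0b2, Tfpi2, Rara, Hemgn and Nupr1. Nr0b2 encodes SHP, a nuclear receptor without a DNA-binding domain that restrains bile acid synthesis, and scored 0.110 and 0.0827 in AA against 0.450 and 0.523 in vehicle, a change of -2.08 ± 0.34 (chr4:133552367-133554988; SE, limma adjusted p = 1.19e-06). Tfpi2, which encodes a Kunitz-type protease inhibitor, scored 0.235 and 0.144 in AA against 0.826 and 0.738 in vehicle, a change of -1.94 ± 0.25 (chr6:3987054-3990289; SE, limma adjusted p = 4.8e-11), and its peak is also within 1000 bp of Gngt1. In both genes the vehicle libraries were more than 3 times the AA libraries. The raw depth in AA was 1.01 and 0.814 per base at Nr0b2 and 2.16 and 1.42 at Tfpi2, against 8.76 and 6.85 at Nr0b2 and 16.1 and 9.67 at Tfpi2 in vehicle.

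Rara, which encodes the retinoic acid receptor alpha, scored 0.0677 and 0.103 in AA and 0.321 and 0.397 in vehicle. At Rara no start from the table lies in the peak. Hemgn, known from blood-forming cells, scored 0.173 and 0.162 in AA and 0.546 and 0.561 in vehicle, and Nupr1, a stress-response gene, scored 0.120 and 0.104 in AA and 0.324 and 0.353 in vehicle. The changes at Rara, Hemgn and Nupr1 were -1.81, -1.59 and -1.40 with limma adjusted p from 2.21e-05 to 0.0114. The raw depth in AA was 0.621 and 1.02 per base at Rara, 1.59 in both libraries at Hemgn, and 1.10 and 1.03 at Nupr1. In vehicle it was 6.25 and 5.21, 10.6 and 7.35, and 6.31 and 4.63 in that order. None of the 50 lower calls, these 5 included, was made in all 4 fits without 1 library; Tfpi2 was called in 3 of them.

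**Figure D3:**
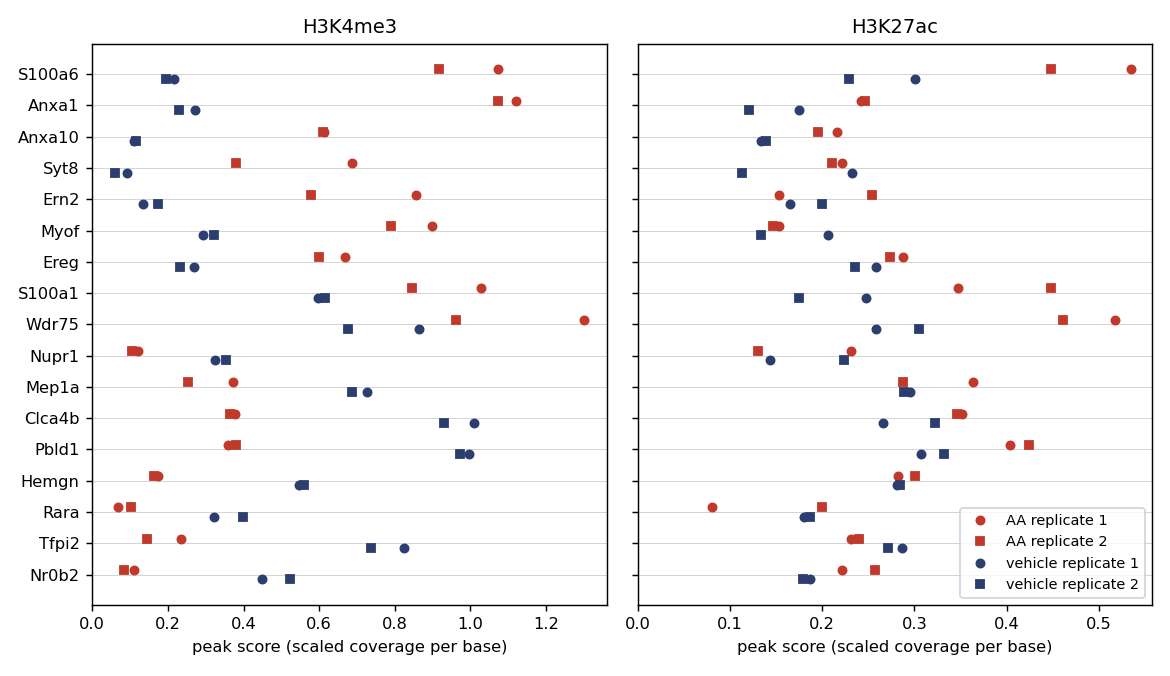
Peak scores (scaled coverage per base) in every library at 17 named promoters, H3K4me3 on the left and H3K27ac on the right; red points are AA and blue points vehicle libraries, circles replicate 1 and squares replicate 2. All 17 were called in H3K4me3, and the groups are apart at every called member, so their separation in H3K4me3 follows from the choice. In H3K27ac the groups overlap at 7 of the 17, among them Syt8, Ern2 and Myof. Over all members the H3K27ac groups were apart with AA higher at 38.8% and with AA lower at 5.33%. At S100a6 the H3K27ac scores are 0.535 and 0.448 in AA and 0.301 and 0.229 in vehicle.

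Genes of the fetal-like, regenerative epithelium, a state that intestinal cells enter on injury, were the list with the most rises. Of its 24 genes 11 had a member promoter. Of these, 7 were called higher in H3K4me3, 0 lower and 4 neither, against 5.97% of all members called higher and 0.828% lower. Their median change was 0.93, against 0.21 for all members. The list was assembled with earlier results of these data known, so its count is not independent support for its direction. Besides Anxa1 and S100a6 the risers were Ereg, which encodes the EGF receptor ligand epiregulin (0.669 and 0.599 in AA, 0.269 and 0.232 in vehicle; no start from the table in the peak), Anxa3 (0.947 and 0.739 in AA, 0.404 and 0.398 in vehicle), Cldn4, a tight junction gene (0.923 and 0.839 in AA, 0.500 and 0.493 in vehicle), S100a11 (1.38 and 1.02 in AA, 0.661 and 0.715 in vehicle) and the keratin gene Krt7 (1.83 and 1.59 in AA, 1.13 and 1.23 in vehicle). At all of them both AA libraries lay above both vehicle libraries. The changes were 1.26 ± 0.25 at Ereg, 1.02 ± 0.20 at Anxa3, 0.79 ± 0.19 at Cldn4, 0.76 ± 0.16 at S100a11 and 0.52 ± 0.12 at Krt7 (SE), with limma adjusted p from 0.000163 to 0.00318. Ly6a, which encodes the injury marker Sca-1, did not pass (0.245 and 0.205 in AA, 0.111 and 0.125 in vehicle; adjusted p = 0.313), nor did Il1rn (adjusted p = 0.196), Sprr1a (0.624) and Anxa5 (0.453).

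Of 25 YAP/TAZ genes, which act downstream of the Hippo pathway, 6 were members and 2 of these were called higher (5.97% of all members were). Myof, which encodes the membrane repair protein myoferlin, scored 0.899 and 0.789 in AA and 0.292 and 0.323 in vehicle (change 1.38 ± 0.22, SE, limma adjusted p = 1.82e-07). Tead1, which encodes the transcription factor that YAP binds, scored 1.13 and 1.08 in AA and 0.786 and 0.685 in vehicle (0.57 ± 0.16, adjusted p = 0.0168). No start from the table lies in the Tead1 peak.

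Among 13 members of the fatty acid oxidation and PPAR target list, 2 were called higher and 0 lower (5.97% and 0.828% of all members were). Pdk4, which encodes a kinase that shuts off pyruvate dehydrogenase and is a PPAR target, scored 0.743 and 0.650 in AA and 0.341 and 0.437 in vehicle, a change of 0.81 ± 0.21 (SE, limma adjusted p = 0.0136). Acadl, which encodes a long-chain acyl-CoA dehydrogenase, scored 0.989 and 0.812 in AA and 0.612 and 0.553 in vehicle, a change of 0.60 ± 0.18 (adjusted p = 0.0316). Angptl4, another PPAR target, did not pass at 0.810 and 0.635 in AA and 0.524 and 0.561 in vehicle (adjusted p = 0.289).

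In the enterocyte list 12 of 25 genes were members, 1 called lower and 0 higher (0.828% and 5.97% of all members were). Mep1a, which encodes the brush border protease meprin alpha, scored 0.373 and 0.252 in AA and 0.726 and 0.687 in vehicle (-1.14 ± 0.23, SE, limma adjusted p = 0.000202). The bile acid transporter gene Slc10a2 scored 0.256 and 0.251 in AA and 0.159 and 0.150 in vehicle (adjusted p = 0.384), the sucrase gene Sis 0.226 and 0.213 in AA and 0.314 and 0.299 in vehicle (adjusted p = 0.499), and the apolipoprotein gene Apoa1 0.424 and 0.275 in AA and 0.447 and 0.498 in vehicle (adjusted p = 0.372). At these 3 genes the groups did not overlap, in different directions, without passing the test. In all, 7 of the 12 enterocyte members had a change above 0.

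In the lists of general machinery all calls were higher, against 5.97% of all members called higher. They were 4 of 14 replication and mitosis members (Top2a, Pole, Rfc4 and Mcm5), 3 of 16 for mitochondrial translation (Tufm, Tsfm and Mrpl28), 2 of 10 for splicing (Prpf8 and Sf3b2), and 1 each of 14 proteasome (Psmd2), 14 respiratory chain (Atp5a1) and 8 ribosomal protein members (Rps6). The transcription machinery list had 0 of 10. No start from the table lies in the Pole and Atp5a1 peaks. Top2a, the topoisomerase gene of dividing cells, scored 1.49 and 1.39 in AA and 1.10 and 0.962 in vehicle (0.48 ± 0.13, SE, limma adjusted p = 0.0187), and Tufm, the mitochondrial elongation factor gene, 1.20 and 1.19 in AA and 0.840 and 0.806 in vehicle (0.52 ± 0.15, adjusted p = 0.0234). The median changes of these 7 lists were 0.26 to 0.39, against 0.21 for all members, and the lists' members are strong, with median scores of 0.80 to 0.95 against 0.73 for all members. The 2 strongest bins of members above had median changes of 0.27 and 0.33.

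The remaining lists held few members and fewer calls. Of all members 6.80% were called in either direction and 5.97% higher. Oxidative stress defence had 5 members with 1 higher, Gsta4, which encodes a glutathione transferase that clears lipid peroxidation products (1.21 and 0.979 in AA, 0.739 and 0.665 in vehicle; 0.62 ± 0.16, SE, limma adjusted p = 0.0101). There were 0 calls among 11 members of the Polycomb and chromatin modifier list, 7 of antigen presentation and interferon, 4 of the prostaglandin and arachidonate list, 4 of the cAMP and CREB list, 3 each of sterol synthesis, the unfolded protein response, secretory lineages and housekeeping, and at Znrf3, Hnf4g and Itgam. Of the arachidonate genes, Hpgd, which encodes the enzyme that inactivates prostaglandins, scored 1.16 and 0.940 in AA and 0.945 and 0.972 in vehicle (adjusted p = 0.697), and Pla2g4a, which encodes the phospholipase that frees arachidonate, 0.630 and 0.593 in AA and 0.474 and 0.431 in vehicle (limma adjusted p = 0.308). The groups overlapped at Hpgd and did not at Pla2g4a. No start from the table lies in the Gsta4 peak.

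Members called lower had CpG-poor promoters. Over the 42 promoters in member peaks called lower the median observed-to-expected CpG ratio was 0.24, against 0.79 over the 402 in peaks called higher and 0.77 over the 4667 in peaks not called. With the 5111 promoters ranked by this ratio and cut into 3 bins of equal size, the lower calls numbered 41, 1 and 0 from the poorest to the richest bin, and the higher calls 126, 143 and 133. Among promoters whose H3K4me3 was called and changed by 1 or more, a cut chosen after the values were seen, the median ratio was 0.33 over 15 that were higher and 0.27 over 19 that were lower. GGAATG occurred in 14 of the 42 lower promoters (33.3%), against 11.5% of all member promoters, TATAAA in 9 (21.4%, against 6.67%), and CCGGAAG in 1 (2.38%, against 23.1%). Peaks called lower also had a lower level, with a median mean score of 0.474, against 1.06 for those called higher, and CpG content and level were not separated here.

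**Figure D4:**
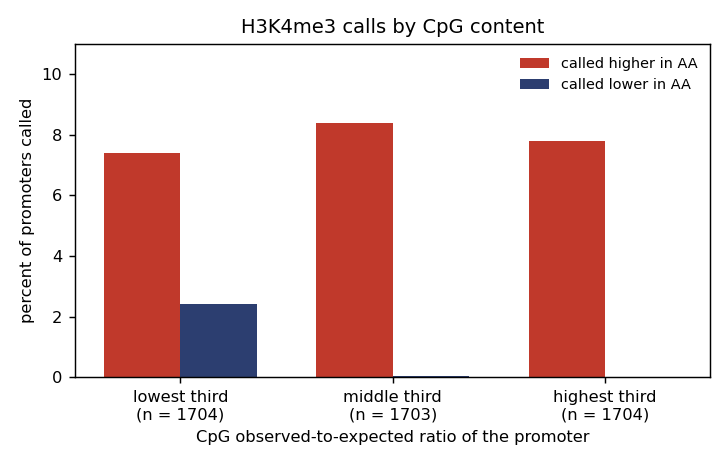
Percent of promoters in member peaks called higher (red) or lower (blue) in H3K4me3 in AA, for 3 bins of equal size by the CpG observed-to-expected ratio of the promoter. The higher calls take 7.39% to 8.40% of each bin, while the lower calls take 2.41% of the CpG-poorest bin and 0.0587% and 0% of the other two.

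The second comparison asked where H3K27ac differed. It was called different at few members. In AA 22 were called higher (0.364%, against 0.155% of all H3K27ac peaks) and 1 lower (0.0166%, against 0.0448%). The test was limma on log2(score + 0.0693) adjusted over 62547 peaks, and 736 members had an unadjusted p under 0.05. The median SE of a change was 0.201 and the median absolute change 0.186, so few calls do not show that the mark changed little. The median change was 0.15 over members and 0.11 over all peaks, and 76.6% of members and 63.2% of all peaks had a change above 0. AA and vehicle libraries did not overlap with AA higher at 38.8% of members (28.5% of all peaks) and with AA lower at 5.33% (10.7% of all peaks). The median absolute gap at members was 0.191 between AA libraries and 0.190 between vehicle libraries on the log2 scale. None of the 23 calls was made in all 4 fits without 1 library. Their groups did not overlap, so leaving out 1 library could not turn a sign. The median change of the members was 0.11 and 0.20 without AA replicate 1 and 2, and 0.17 and 0.12 without vehicle replicate 1 and 2. With centring on the strongest 25% there were 8 higher and 3 lower calls (72.7% higher, against 95.7% as deposited), and with MACS2 peaks 0.

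The members called higher in H3K27ac were led by Ncoa6, which encodes a nuclear receptor coactivator (0.574 and 0.243 in AA, 0.150 and 0.161 in vehicle), where AA replicate 1 alone was far above the vehicle libraries, and the change was 0.47 without it against 1.00 with it. Mybpc2, a muscle gene whose peak is also within 1000 bp of Spib, a transcription factor gene of immune and rare epithelial cells, scored 0.382 and 0.419 in AA and 0.188 and 0.168 in vehicle (0.93 ± 0.20, SE, limma adjusted p = 0.00426). Atp6v0a1, a proton pump subunit gene, scored 0.464 and 0.423 in AA and 0.257 and 0.171 in vehicle (0.87 ± 0.18, adjusted p = 0.00276). Klhl42, a ubiquitin ligase adaptor gene, scored 0.419 and 0.385 in AA and 0.209 and 0.176 in vehicle, and Hgfac, the gene of a protease that activates hepatocyte growth factor, 0.349 and 0.379 in AA and 0.155 and 0.189 in vehicle (limma adjusted p = 0.0111 and 0.0336). Except at Hgfac, no start from the table lies in these peaks, so whether they are promoters of the named genes is not shown. In the 5 genes the groups did not overlap, and their H3K4me3 was not called. The 1 lower call was Ank, which encodes a pyrophosphate transporter, at 0.131 and 0.0235 in AA and 0.405 and 0.263 in vehicle (-1.54 ± 0.32, adjusted p = 0.00307). Its raw depth in AA was 1.48 and 0.348 per base, against 4.19 and 3.68 in vehicle, and without 1 library the change ranged from -2.10 to -0.98 with a call in 0 of 4 fits. Its H3K4me3 scores overlapped, at 0.529 and 0.525 in AA and 0.525 and 0.535 in vehicle.

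Both marks were called at 3 members, all higher in AA (11 of the 34084 H3K4me3 peaks with an H3K27ac peak were called in both, 0.0323%). At S100a6 the H3K27ac score was 0.535 and 0.448 in AA and 0.301 and 0.229 in vehicle (0.75 ± 0.16, SE, limma adjusted p = 0.00637). At Wdr75, which encodes a factor of ribosome assembly, H3K4me3 was 1.30 and 0.961 in AA and 0.863 and 0.677 in vehicle (0.53 ± 0.15, limma adjusted p = 0.0269), and H3K27ac was 0.517 and 0.461 in AA and 0.259 and 0.305 in vehicle (0.67 ± 0.16, adjusted p = 0.0227). At S100a1, another calcium-binding gene, whose peak also holds the start of S100a13, H3K4me3 was 1.03 and 0.844 in AA and 0.596 and 0.616 in vehicle (0.60 ± 0.17, limma adjusted p = 0.0276), and H3K27ac was 0.347 and 0.448 in AA and 0.248 and 0.175 in vehicle (0.74 ± 0.19, adjusted p = 0.0475). In each of the 3 genes both AA libraries lay above both vehicle libraries in both marks. The H3K27ac call was made in 1 of the 4 fits without 1 library at S100a6 and in 0 at Wdr75 and S100a1.

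Across members the levels of the marks correlated more than their changes. Spearman's rho over 6042 members was 0.56 between the mean scores and 0.14 between the changes, as descriptions of peaks that share the same libraries. The median SE of the H3K27ac change was 0.201, against a median absolute change of 0.186. The part of this spread in the rho of 0.14 was not tested. H3K27ac was above 0 in its change at 319 of the 361 members called higher in H3K4me3 (88.4%), at 30 of the 50 called lower (60.0%) and at 76.0% of those not called. Anxa1, with its 2.03 rise in H3K4me3, had H3K27ac scores of 0.243 and 0.246 in AA and 0.175 and 0.121 in vehicle, and Anxa10 0.216 and 0.196 in AA and 0.134 and 0.140 in vehicle, without overlap and without passing the test (adjusted p = 0.652 and 0.783). At Ern2 (0.153 and 0.254 in AA, 0.165 and 0.200 in vehicle) and Myof (0.154 and 0.147 in AA, 0.206 and 0.134 in vehicle) the groups overlapped in H3K27ac.

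**Figure D5:**
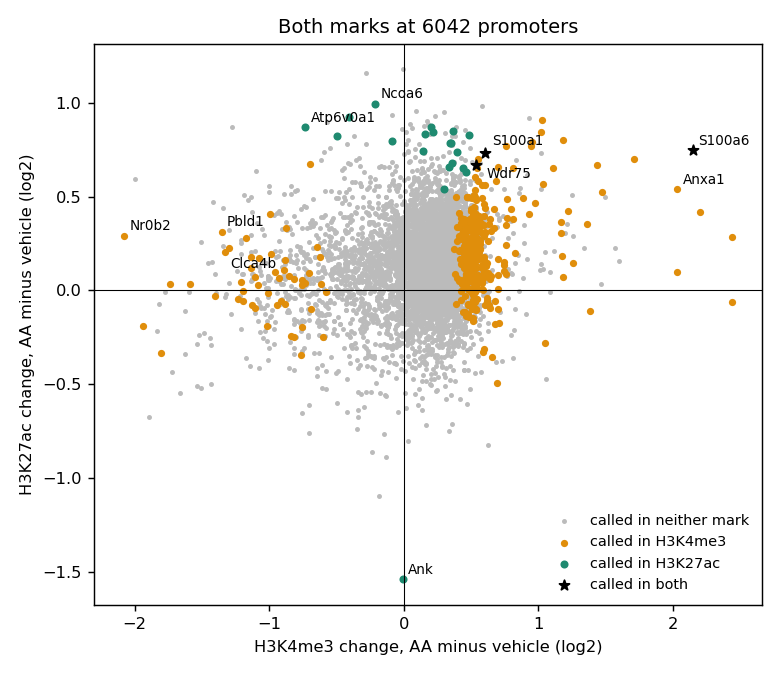
Change in H3K27ac against change in H3K4me3, both AA minus vehicle on the log2 scale, with 1 point per member; orange points were called in H3K4me3, green points in H3K27ac and black stars in both. The orange points spread from -2.08 to 2.44 along the H3K4me3 axis while the median H3K27ac change was 0.20 at members called higher in H3K4me3, 0.039 at those called lower and 0.15 at the rest, and the 3 stars are S100a6, Wdr75 and S100a1.

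The difference between the marks was tested itself, as the H3K27ac change minus the H3K4me3 change, in limma over 34084 overlapping pairs of peaks and 8 libraries. It was called at 3 members (9 of all pairs, 0.0264%), 3 with a positive and 0 with a negative difference (7 and 2 of all pairs, 0.0205% and 0.00587%), and 520 members had an unadjusted p under 0.05. At Nr0b2 the difference was 2.37 ± 0.36 (SE, limma adjusted p = 0.032): H3K27ac scored 0.222 and 0.257 in AA and 0.186 and 0.179 in vehicle, while H3K4me3 was low in AA. At Pbld1, whose H3K4me3 scored 0.358 and 0.381 in AA and 0.996 and 0.972 in vehicle, H3K27ac was 0.404 and 0.424 in AA and 0.307 and 0.332 in vehicle (1.67 ± 0.21, adjusted p = 0.00927). At Clca4b, a gene of the chloride channel accessory family, H3K4me3 was 0.377 and 0.363 in AA and 1.01 and 0.931 in vehicle and H3K27ac 0.352 and 0.346 in AA and 0.266 and 0.322 in vehicle (1.54 ± 0.22, adjusted p = 0.0252). In all 3 genes AA was below vehicle in H3K4me3 and above it in H3K27ac without overlap. All 3 lost their call without either vehicle H3K4me3 library. Nr0b2 also lost its call without any 1 of the H3K27ac libraries, and Clca4b without H3K27ac vehicle replicate 1.

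The width limit of 6000 bp cuts through a continuous range. Just inside it, Gss, the glutathione synthetase gene, and Osbp, an oxysterol-binding protein gene, both had peaks of 5998 bp, with H3K4me3 scores of 0.817 and 0.722 in AA and 0.683 and 0.561 in vehicle at Gss and 0.823 and 0.858 in AA and 0.774 and 0.687 in vehicle at Osbp. Just outside it, Gsta3, a glutathione transferase gene, had a peak of 6003 bp with 1.08 and 1.02 in AA and 0.763 and 0.833 in vehicle, and Pcgf6, a Polycomb group gene, one of 6005 bp with 0.773 and 0.675 in AA and 0.638 and 0.578 in vehicle. Of the landmark genes looked up, Epcam, Vil1, Hnf4a, Actb, Gapdh, Myc, Cd44, Ptger4 and Ezh2 had broad peaks, and Cdh1, Krt8, Cdx2, Clu, Ptgs2, Ppard and Cpt1a had peaks that overlapped H3K27me3, so these are not members. Members were spread over all 19 autosomes at 38.4% to 48.6% of the gene-end peaks, with median H3K4me3 changes of 0.19 to 0.24.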

How the data were processed

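CUT&RUN libraries for H3K4me3, H3K27ac and H3K27me3 from AA and vehicle organoids were used, 2 per group and mark, 12 in all. Peaks came from SEACR and MACS2 on mm10, per the submitters' processing notes. The aligner, the tool versions and the scaling were not given in the sources used here. The deposited signal is 1 score per peak and library, and tested on the values, multiplying it by peak length gave whole steps of a library's own size (99.99% to 100% within 0.1 step), as for coverage scaled by 1 factor; the score divided by the step is the raw coverage. Rows named control were taken as vehicle, the only group left for them. Gene ends and promoters came from RefSeq tables of GRCm38.p6, and starts from the promoter table, which lacks some coding genes. H3K27ac was read at the peak overlapping a member by the most bases.

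Log2 values (pseudocount the 5th percentile) were fitted with limma 3.58.1 in R 4.3.3 (trend, robust) over all SEACR peaks of the mark, without replicate block, and tested on simulated data. Changes on this scale understate those of weak peaks. Members, the 26 gene lists and the rules were chosen with earlier results of these data known. Named genes are the 6 largest rises and falls per mark among called, non-overlapping peaks without predicted genes, up to 3 called per list, those called in both marks or in their difference, the 4 strongest per mark in vehicle, those next to the width limit and fixed genes; a few list members beyond these are given as examples. Alternatives were scaling, pseudocount, filter, threshold, block, single libraries, MACS2 peaks and stricter member rules. Some genes that these rules name are not reported here.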

Additional observations from a re-analysis of the deposited data

Results flagged for a closer look

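The change under AA differed between the marks at 3 members, by the test of the difference itself, H3K27ac minus H3K4me3. The difference was 2.37 at Nr0b2, 1.67 at Pbld1 and 1.54 at Clca4b (limma adjusted p = 0.032, 0.00927 and 0.0252). In each the H3K4me3 score was lower in both AA libraries than in both vehicle libraries and the H3K27ac score higher. With a replicate block the adjusted p was 0.116, 0.0551 and 0.101, and after centring on all peaks it was 0.0533 at Clca4b. All 3 lost their call without vehicle H3K4me3 replicate 1 or 2. Nr0b2 also lost its call without any 1 of the H3K27ac libraries, and Clca4b without H3K27ac vehicle replicate 1.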

How the results depend on the processing

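Of 999 values of named genes under other settings, 749 kept their direction and side of the threshold, 230 lost their call, 10 gained one and 10 turned sign. The turned signs were all H3K4me3 changes that were not called: Ank after centring on all peaks (0.21), Irf2bp2 after centring on the strongest 25% (-0.13), and after quantile normalization Ppp1r14d (-0.046), Osbp (-0.011), Mastl (-0.070) and Irf2bp2 (-0.25). Without 1 library the change ranged from -0.014 to 0.45 at Hgfac, from -0.021 to 0.0065 at Ank and from -0.079 to 0.14 at Irf2bp2. The H3K27ac changes of 37 genes named for other reasons were left out of that count after their signs had been seen to vary; 0 of them were called, and 49 of their 608 values, at 18 genes, turned sign.

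For H3K4me3 the calls (higher and lower) were 2336 and 27 after centring on all peaks, 625 and 265 after centring on the strongest 25%, 189 and 168 after quantile normalization, 0 and 0 without trend and robust, 94 and 21 at 0.01, 62 and 16 for members shorter than 3000 bp, 425 and 10 with MACS2 peaks, and 5 to 2797 and 0 to 318 without 1 library. The median change was 0.43, 0.056 and 0.035 under the 3 scalings and 0.046 below 3000 bp. For H3K27ac the calls were 18 and 1, 8 and 3, and 11 and 1 under the same scalings, 0 and 0 for the strongest 50% of peaks, without trend and robust (160 members at an unadjusted p under 0.05) and with MACS2 peaks, 8 and 1 at 0.01, 16 and 0 with acetylation over 50% of the peak, 7 and 0 below 3000 bp, and 0 to 15 and 0 to 2 without 1 library; the median was 0.080, 0.011 and 0.040 under the scalings and 0.26 with MACS2. The difference between marks gave 2 and 9, 13 and 5, and 5 and 2 under the scalings, 0 and 0 without trend and robust, 1 and 0 at 0.01, and 0 to 130 and 0 to 16 without 1 library. The share of members with a RefSeq start was 70.6% with a gene end within 500 bp. The cause of these shifts was not tested; a stricter member rule leaves fewer peaks.

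With the replicate number as a block, limma called 683 members higher and 59 lower in H3K4me3, 67 and 1 in H3K27ac, and 0 and 0 in the difference between marks. The deviations of libraries with the same number correlated at -0.0023 (H3K4me3) and 0.0085 (H3K27ac), so no shared deviation showed across peaks. Whether libraries with the same number came from 1 culture or day is not stated, and this correlation cannot decide it. The median raw depth at members in H3K27ac was 2.68 to 4.04 per base, and its part in the number of calls was not tested.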
